A study of Mus musculus with 10 samples.

Results

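Promoters that carried an ATAC-seq peak in reactivated neural stem and progenitor cells (NSPCs) and in neither of the other states formed a set of 3247 sites, out of 26856 promoter sites and 105302 merged open sites on chromosomes 1 to 19. A site was made by joining peaks that overlapped or touched across the 6 ATAC-seq lists. It was a promoter site when it reached the 1 kb on either side of an annotated transcription start site (TSS). The members were chosen by the peak calls themselves, a peak in both reactivated lists and none in the 2 quiescent and 2 activated lists, so their openness in reactivated cells is the choice and not a finding. All cells were primary C57BL/6 NSPCs isolated from brains at postnatal day 5 and grown as a mixture of stem and progenitor cells. Activated cells (2 libraries) were held with 20 ng/ml FGF2 and 20 ng/ml EGF. Quiescent cells (2 libraries) had EGF replaced by 25 ng/ml BMP4, with 20 ng/ml FGF2 still present, for 4 days per the labels and 72 h per the study's methods. Reactivated cells (2 libraries) went through 4 days of BMP4 and then returned to FGF2 and EGF for 9 to 12 days, so they also spent longer in culture than the activated cells, and time in culture and history of quiescence cannot be told apart. H3K4me3 was profiled by ChIP-seq with 1 library each in quiescent and activated cells, and there was none from reactivated cells.

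ATAC-seq uses the Tn5 transposase to cut and tag DNA that is not wrapped tightly in nucleosomes, and a peak marks a place where such cuts pile up. Most active mammalian promoters hold an open stretch just upstream of the TSS, often within a CpG island, flanked by nucleosomes that carry trimethylation of lysine 4 of histone H3 (H3K4me3). That mark is laid down at promoters with CpG islands even where transcription is low, and a promoter can therefore carry the mark and give little open chromatin. Promoters of genes for other lineages or for the germ line are commonly closed in neural stem cells.

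The reactivated lists held more peaks and higher values than the other 4, and this bears on every count of the members. On chromosomes 1 to 19 the reactivated lists held 103186 and 103783 peaks, against 53586 and 59108 in quiescent cells and 56961 and 46071 in activated cells. At the 12303 promoters open in all 6 lists, median fold enrichment over local background was 11.2 and 11.9 in the reactivated libraries and 6.88 to 8.63 in the other 4. Members made up 12.1% of promoter sites, while 129 promoter sites (0.48%) had a peak in both quiescent lists alone and 12 (0.0447%) in both activated lists alone. When every list was limited to its strongest 46071 peaks, the length of the shortest, 348 promoter sites had a peak in both reactivated lists alone, 351 in both quiescent lists alone and 200 in both activated lists alone. Of the 3247 members, 220 were among those 348. With a minimum −log10 q of 10 in all lists the counts were 3417, 51 and 3, and 1052 of the 3417 were members. The reactivated fold enrichments were also divided by 1.57 and 1.66. These were the ratios of the reactivated libraries to the median of the other 4 at promoters open in all 6 lists. The scaled values were held to 2.42, the highest of the 4 lowest folds that the other lists called at genome background. After this 1014 promoter sites were open in reactivated cells alone, 996 of them members, against 277 in quiescent and 123 in activated cells alone. At equal length the count was thus close to that of quiescent cells and above that of activated cells, and under the other 2 settings it was above both. The neural stem cell genes Sox2, Nes, Vim and Fabp7 had a promoter peak in all 6 lists. Of genes that mark other cells, Ptprc and Cdh5 had none in any list, Cx3cr1 had a peak in 1 quiescent list, Pecam1 in 1 activated and 1 reactivated list, and Epcam in the 2 reactivated lists alone.

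The sequences under the strongest members are shown for their CpG content and for a pair of near-identical copies among them. Each line gives 200 bases of the mm10 plus strand around the stronger summit, read from the RefSeq GRCm38.p6 assembly, for the 4 members of highest rank whose window held at most 30 bp of annotated UTR. Capitals mark CpG dinucleotides.
Gm19220: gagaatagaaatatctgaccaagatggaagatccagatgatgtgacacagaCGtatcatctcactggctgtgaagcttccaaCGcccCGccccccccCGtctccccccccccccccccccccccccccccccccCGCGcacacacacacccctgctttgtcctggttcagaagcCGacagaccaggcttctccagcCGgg
Gm20482: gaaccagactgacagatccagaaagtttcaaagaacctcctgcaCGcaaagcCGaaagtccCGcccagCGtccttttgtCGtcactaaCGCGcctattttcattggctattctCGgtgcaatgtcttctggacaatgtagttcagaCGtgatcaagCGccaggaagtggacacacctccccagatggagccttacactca
Gm11679: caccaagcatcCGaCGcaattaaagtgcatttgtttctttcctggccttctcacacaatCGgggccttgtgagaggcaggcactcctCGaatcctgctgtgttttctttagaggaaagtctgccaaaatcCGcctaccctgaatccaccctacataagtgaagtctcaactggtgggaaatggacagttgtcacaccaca
Gm45351: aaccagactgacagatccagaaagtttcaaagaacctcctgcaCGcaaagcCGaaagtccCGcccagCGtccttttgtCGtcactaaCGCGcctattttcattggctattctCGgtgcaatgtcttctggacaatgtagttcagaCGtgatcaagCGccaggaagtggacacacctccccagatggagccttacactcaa
The Gm19220 window (chr12:40893619-40893818) lay in the exon of a processed pseudogene, 234 bp downstream of its TSS, with 8 CpGs, a GC content of 63.5% and a run of 33 cytosines. The Gm20482 window (chr7:8862783-8862982) and the Gm45351 window (chr7:9876896-9877095) lay 32 and 30 bp upstream of the TSSs of 2 unprocessed pseudogenes on the same chromosome. These 2 windows were the same in 199 of 199 aligned bases when moved by 1 base, so read pairs wholly within them could not be told apart by sequence. How such reads were placed was not tested, and the values at these 2 sites are uncertain. Both windows held a CCAAT box on the minus strand and a GGGCGG match, and each held 10 CpGs. The Gm11679 window (chr11:112044537-112044736) lay in intergenic DNA 1059 bp upstream of a processed pseudogene's TSS, with 5 CpGs and a GC content of 49.0%.

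The 15 strongest members, ranked by the mean percentile of fold enrichment within each reactivated list, had no other open site at the same TSS and were otherwise mixed. Of them 10 lay at protein-coding genes, as did 81.9% of all members, 8 carried H3K4me3 in both states, as did 51.5%, and 0 shared their TSS window with a site open in quiescent or activated cells. The choice of members bears on the last count, since a peak that reached a quiescent or activated peak was merged with it. Zrsr1, a paternally expressed imprinted gene that lies within an intron of Commd1, headed the list, with fold enrichments of 13.04 and 15.11 in reactivated libraries 1 and 2 and no peak in the other 4. Its site (chr11:22973096-22973263) was 168 bp wide, its summit stood 35 bp upstream of the TSS, and the overlapping H3K4me3 peaks had fold enrichments of 23.6 in quiescent and 21.2 in activated cells. This was the highest value of any member in either reactivated library.

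Fzd6, a Frizzled receptor of Wnt ligands, had fold enrichments of 8.67 and 11.6 at a site 632 bp wide (chr15:39005977-39006608) whose summit stood 28 bp upstream of the TSS. The site had a GC content of 82.5% around its summit and H3K4me3 peaks of 13.1-fold in quiescent and 11.9-fold in activated cells. Edc3, which encodes an enhancer of mRNA decapping, had fold enrichments of 11.2 and 7.32 at its TSS (chr9:57708394-57708850, summit 5 bp upstream) under H3K4me3 peaks of 47.0-fold and 55.8-fold. No quiescent or activated peak reached any TSS of Fzd6 or Edc3. Perp, a p53 target found in desmosomes, had 9.21 and 9.18 (chr10:18844763-18845322), with weaker H3K4me3 peaks of 10.5-fold and 7.68-fold. Tcf24, a basic helix-loop-helix factor, had 8.40 and 10.7 (chr1:9967708-9968357) with H3K4me3 peaks of 6.16-fold and 7.24-fold.

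Other members among the 15 had no H3K4me3 peak in either profiled state. Ccdc3 had fold enrichments of 11.4 and 8.78 at a GC-rich site (chr2:5137617-5138246), 159 bp downstream of the TSS. Col22a1, which encodes a collagen of tissue junctions, had 8.41 and 10.6 with its summit 55 bp upstream of the TSS (chr15:72034087-72034458). Dclk3, a doublecortin-like kinase, had 9.11 and 9.35 (chr9:111438902-111439475), 43 bp upstream. Prrx2, a paired-type homeobox factor of mesenchyme, had 8.81 and 9.31 at a site of 154 bp (chr2:30834648-30834801), and another site at that gene was open in quiescent or activated cells. Gm43195 had 7.93 and 11.7, also without the mark. The remaining member of the 15, 2010111I01Rik, had 8.14 and 10.9 and did carry H3K4me3, with peaks of 22.3-fold in both states.

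**Figure D1:**
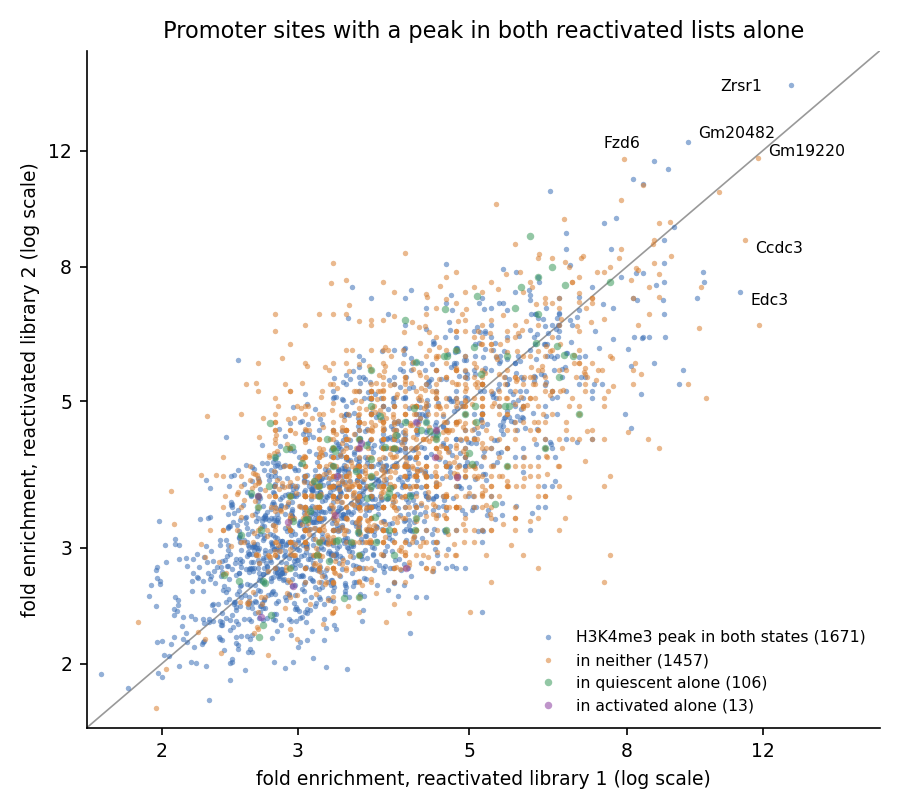
Fold enrichment of the strongest peak at each of the 3247 members in reactivated library 1 (x axis) and library 2 (y axis), both on log scales, with each point a site coloured by its H3K4me3 peaks and the grey line marking equal values. Most points lie near the medians of 3.73 and 3.78, and Zrsr1 stands at the upper right.

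Most members, as called from the full lists, were weak peaks of those lists. The median of the members' mean percentile was 29.8, and it was 68.9 for the sites found at equal list length, 55.8 with a minimum −log10 q of 10 in all lists and 53.9 after scaling. Those settings remove weak peaks by construction, so their higher values say nothing of the members' strength. Median fold enrichment was 3.73 in reactivated library 1 (quartiles 3.08 and 4.67) and 3.78 in library 2 (quartiles 3.15 and 4.72), which put the median member at the 29.4 and 30.1 percentiles of all peaks in those lists. Median −log10 q was 9.80 and 9.75. The read pileup at the summit, recovered from the deposited fold enrichment and p-value for 3185 members in library 1 and 3206 in library 2, had a median of 37 and 36 fragments. The strongest peaks, such as Zrsr1, Fzd6 and Ccdc3, could not be recovered and are left out of these medians. The lowest pileup called was 16 to 25 across the 6 lists. The width of a member was 262 bp at the median, against 788 bp for promoters open in all 6 lists. It was 443 bp for promoters open in activated and reactivated but not quiescent cells, and 385 bp for those open in quiescent and reactivated but not activated cells. Promoters in both quiescent lists alone had 300 bp, and those in both activated lists alone 234 bp. A site joins the peaks of all its lists, so its width depends on the number of lists and on the choice of members. The 2 libraries placed the summits close together, with a median distance of 18 bp, and within 100 bp at 2968 members (91.4%). Across members, log2 fold enrichment correlated between the 2 libraries with Pearson r = 0.69 and Spearman rho = 0.65 over 3247 sites, which share 1 genome and are not independent replicates.

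The edge of the set was set by single calls near the threshold. The 3 members with the lowest −log10 q in their weaker library were Rundc3a (1.39 in library 1 and 4.58 in library 2), Fam110c (2.82 and 1.47) and Pcbp3 (3.82 and 1.47). Just outside, 1730 promoter sites had a peak in both reactivated lists and in 1 of the other 4. The 3 of these with the weakest other peak were Usp19, Cftr and Plekha7, each held out by a quiescent library 2 peak with a −log10 q of 1.301 or 1.302. The low end of the background recovered with the pileups was highest in that library, at 12.1 fragments against 6.01 to 6.61 in the other lists. At Cftr the reactivated fold enrichments were 11.9 and 10.1 and the quiescent library 2 value was 1.99, so a site far stronger than the median member was held out by 1 peak at the calling threshold. A missing peak in the quiescent or activated lists is therefore a call below threshold, and not a measured 0.

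Members lay farther from the TSS than promoters open throughout, with an excess downstream. The summit was within 100 bp of the nearest TSS at 31.6% of members (95% exact binomial interval 30.0% to 33.2%) and at 68.6% of promoters open in all 6 lists (67.8% to 69.5%). It lay over 100 bp downstream at 43.0% of members against 11.6%, and over 100 bp upstream at 25.4% against 19.8%. This placement was not particular to members: the summit was within 100 bp at 32.9% of those open in activated and reactivated but not quiescent cells and at 30.1% of those open in quiescent and reactivated but not activated cells, and downstream at 33.9% and 33.3%. Downstream summits made up 49.98% of promoters open in 1 reactivated list alone. A reactivated peak that reached an open site at the TSS was merged with it and was not a member. The choice of members can thus set part of their distance from the TSS. Where no other open site was at the TSS, the summit was within 100 bp at 39.3% of members. By annotation the summit fell in an intron at 1410 members, in intergenic DNA at 612, in a UTR at 554, in an exon of a noncoding transcript at 357 and in a coding exon at 314. Intervals here cover counting error alone. The share of promoter sites that were members ranged from 10.24% on chromosome 3 to 14.1% on chromosome 11.

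**Figure D2:**
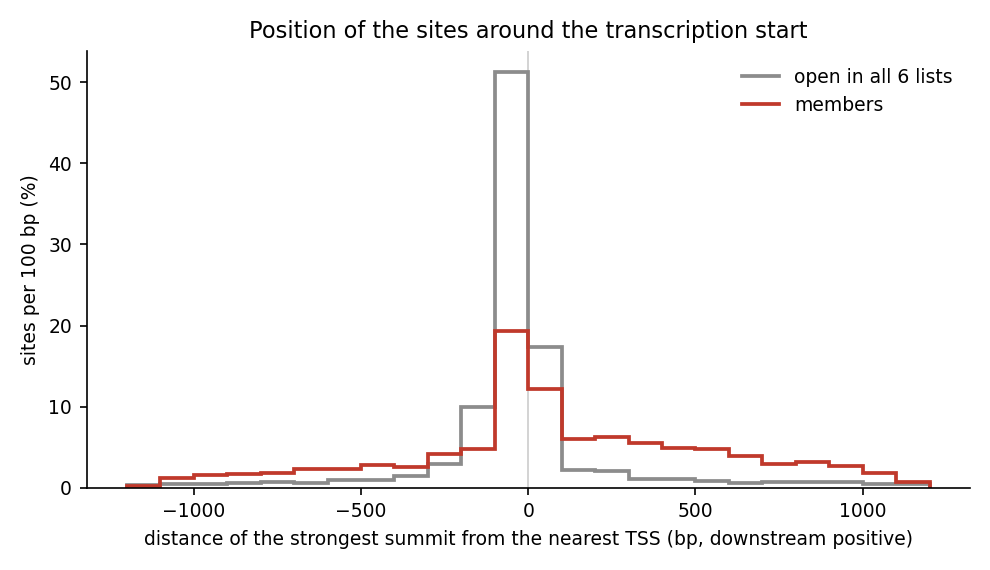
Share of sites per 100 bp of distance between the strongest summit and the nearest TSS (x axis in bp, downstream positive) for the 3247 members (red) and the 12303 promoters open in all 6 lists (grey). The grey line peaks in the 100 bp before the TSS, and the red line has a lower peak and a longer arm downstream.

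The set held 2 kinds of promoter site. At 1462 members (45.0%, 43.3% to 46.8%) the same TSS window also held a site with a quiescent or activated peak, so the member was an additional open stretch at a promoter that was already open. This share was 29.0% at equal list length, 25.8% after scaling and 14.2% where no quiescent or activated peak was allowed within 500 bp. At the other 1785 (54.97%) no such site was present. The first kind was weaker, with median fold enrichments of 3.32 and 3.37 against 4.14 and 4.22, and its summits were within 100 bp of the TSS at 22.1% against 39.3%. H3K4me3 was present in both states at 78.5% of the first kind and 29.4% of the second. With members split into 4 groups of like size by mean percentile, in the weakest group 73.9% (70.7% to 76.9%) lay beside another open site, and in the strongest group 21.1% (18.3% to 24.0%). A reactivated peak that overlapped or touched a quiescent or activated peak was merged with it and was not a member. Strength, summit position and the share beside another open site are therefore partly set by the choice of members. The nearest quiescent or activated site was within 500 bp of 1256 members, and the median distance was 2021 bp.

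H3K4me3, which the choice of members did not use, covered 51.5% of members in both profiled states and left 44.9% uncovered in both. Both profiled states had a peak over 1671 members (51.5%, 49.7% to 53.2%), neither had one over 1457 (44.9%), quiescent cells alone over 106 (3.27%) and activated cells alone over 13 (0.4004%). Among all promoter sites these shares were 65.7%, 31.6%, 2.29% and 0.428%. The members' share with the mark in both states was 33.6% where no quiescent or activated peak was allowed within 500 bp. At promoters open in all 6 lists 89.8% carried H3K4me3 in both states, at promoters open in both activated and both reactivated lists but not in quiescent cells 46.5% (42.8% to 50.3%), and at sites open in reactivated cells alone but away from promoters 3.85%. The last value had 12060 sites behind it. Where present, the overlapping H3K4me3 peak had a median fold enrichment of 26.2 in quiescent and 25.9 in activated cells at members, and 38.3 and 35.9 at promoters open in all 6 lists. These values belong to the whole broad peak, and with 1 library a state they have no replicate check. An overlap of 1 bp with the site was enough to count the mark, and the classes differed in width and position. Median width was 262 bp at members and 788 bp at promoters open in all 6 lists. How far width and position enter the shares was not tested.

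**Figure D3:**
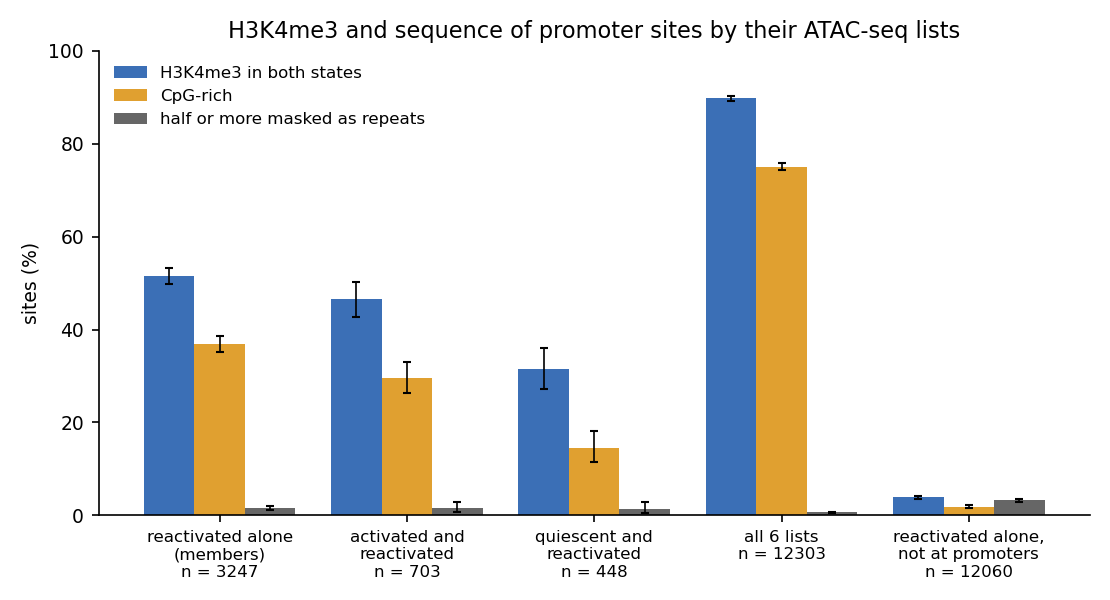
Share of sites (y axis, %) with an H3K4me3 peak in both profiled states (blue), CpG-rich sequence (yellow) and at least 50% of the 200 bp around the summit masked as repeats (grey), for 5 classes of sites by the lists they were open in, with 95% exact binomial intervals as error bars. Members stand at 51.5% for H3K4me3 and 36.9% for CpG-rich sequence, between the promoters open in all 6 lists and the sites away from promoters.

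The members with the highest H3K4me3 lay beside sites open in quiescent or activated cells. Sin3b, a co-repressor scaffold, had H3K4me3 peaks of 77.6-fold in quiescent and 69.3-fold in activated cells over a member of 3.91-fold and 3.99-fold (chr8:72723716-72724005), 455 bp downstream of the TSS and 91 bp from the nearest site open in quiescent or activated cells. Ckb, brain creatine kinase, had 75.8-fold and 62.9-fold over a member of 3.14-fold and 4.41-fold. All 5 members of highest H3K4me3 lay beside another open site. Among members marked in 1 state alone, Nagpa had a quiescent H3K4me3 peak of 52.2-fold and a member 916 bp upstream of Rpp25l one of 48.2-fold, with no activated peak over either site. Gm41396 and Stk11 had activated peaks of 33.8-fold and 33.1-fold and no quiescent peak. All 5 members of highest quiescent H3K4me3 among those marked in quiescent cells alone lay at a TSS with another open site, but over all 106 such members the share was 36.8%, against 45.0% of all members. Whether the states differ in the mark at these sites was not tested, since each had 1 library.

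**Figure D4:**
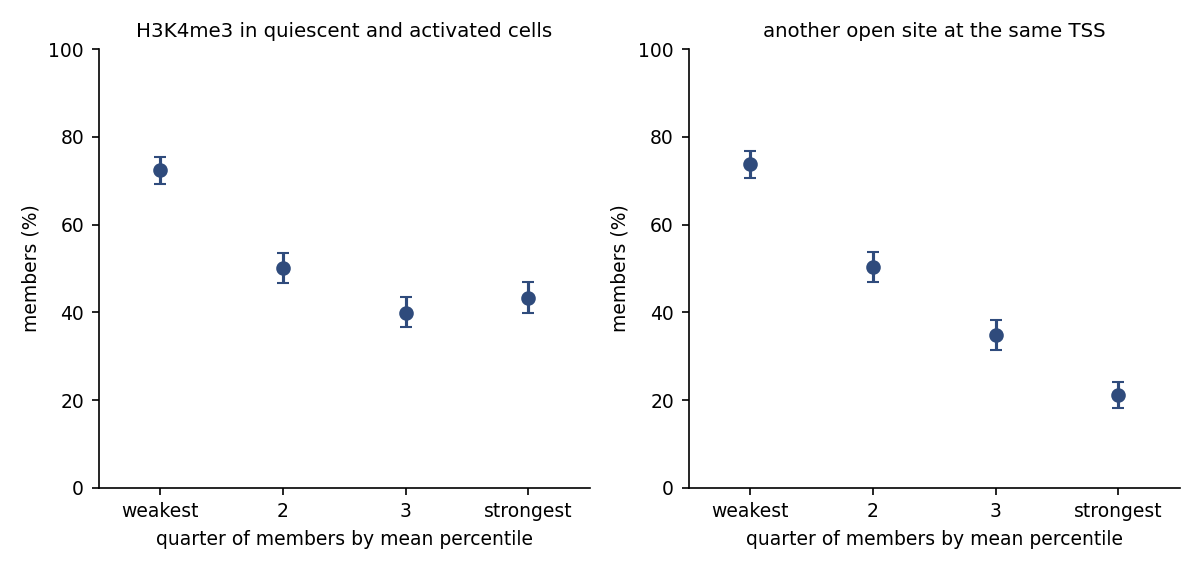
Share of members (y axis, %) with H3K4me3 in both profiled states (left) and with another site open in quiescent or activated cells at the same TSS (right), in 4 groups of members from weakest to strongest mean percentile (x axis, 811 or 812 sites each), with 95% exact binomial intervals. The share beside another open site falls from 73.9% to 21.1%, while the share with H3K4me3 is 72.4% in the weakest group and 39.95% to 50.1% in the others. The choice of members partly sets the right panel, since peaks that overlap or touch are merged.

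Base composition split along the same line as H3K4me3. The median GC content of the 200 bp around the summit was 59.0% at members, 66% at promoters open in all 6 lists, 50.5% at sites open in reactivated cells alone away from promoters and 53.5% over all 125891 annotated TSS positions. Promoters open in activated and reactivated but not quiescent cells had 58.0%, and those open in quiescent and reactivated but not activated cells 54.0%. Promoters open in 1 reactivated list alone had 56.5%. Within the members the median GC content was 63.5% where both states carried H3K4me3 and 54.5% where neither did. CpG-rich sequence, counted as a GC content of at least 50% and an observed to expected CpG ratio of at least 0.6 over 500 bp, was found at 36.9% of members, at 56.6% of those with H3K4me3 in both states and at 13.8% of those with the mark in neither. Promoters open in all 6 lists were CpG-rich at 75.01%. The share was 29.6% at promoters open in activated and reactivated but not quiescent cells. It was 14.5% at those open in quiescent and reactivated but not activated cells and 28.8% at those open in 1 reactivated list alone. Values below those of promoters open in all 6 lists were thus not particular to members. Repeats masked in the assembly filled at least 50% of the window at 1.48% of members.

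Most short sequences of core promoters searched were rarer at members than at promoters open throughout, with TATAAA as the exception. Each motif was searched on both strands within 200 bp around the summit, beside the same search at all annotated TSS positions. GGGCGG, the box bound by Sp1-type factors, was found at 34.03% of members, 61.0% of promoters open in all 6 lists and 26.1% of TSS windows. CCGGAA, a core of Ets-type sites, was found at 7.30%, 21.7% and 10.9%. The values for GCATGCGC, an NRF1-type site, were 0.554%, 4.24% and 1.601%, those for TGACGTCA, the full cyclic AMP response element, 0.616%, 3.23% and 1.19%, and those for CCAAT 18.1%, 33.1% and 24.6%. TATAAA was found at 4.03% of members, 2.25% of promoters open in all 6 lists and 8.03% of TSS windows, and AAGATGG, a YY1-type site, at 2.16%, 4.77% and 5.49%. These contrasts were not particular to members. At promoters open in both activated and both reactivated lists but not in quiescent cells, GGGCGG was found at 28.7%. In the order above, the shares there of the other motifs were 7.68%, 0.85%, 0.28%, 17.8%, 4.55% and 1.85%.

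Among the other motifs, those that were more frequent at sites away from promoters than at promoters open throughout mostly had a share between both at members. CANNTG, the E-box of basic helix-loop-helix factors, was found at 59.7% of members, 45.1% of promoters open in all 6 lists, 73.9% of sites open in reactivated cells alone away from promoters and 58.2% of TSS windows. CAGCTG, 1 form of that E-box and counted within it, was found at 18.9%, 13.1%, 25.7% and 12.4%. It was more frequent, at 35.0%, in the 703 promoters open in both activated and both reactivated lists and not in quiescent cells. TTGGC, the short site of NFI factors, which can overlap CCAAT on the other strand, was found at 37.5% of members, below both the 42.1% of promoters open in all 6 lists and the 48.4% of sites away from promoters. Beside TSS windows, ACAAAG, a Sox-type site, was found at 15.2% and 12.8%, TGANTCA, the AP-1 site, at 4.74% and 4.45%, GGAATG, a TEAD-type site, at 9.95% and 8.99%, and TGTTTAC, a forkhead site, at 1.63% and 1.93%. A match is a run of letters and not a bound site.

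The consensus of CTCF, the insulator protein, was found at 92 members (2.83%, 2.29% to 3.46%), 1.47% of promoters open in all 6 lists, 6.07% of sites open in reactivated cells alone away from promoters and 0.303% of TSS windows. It was found at 5.01% of members with H3K4me3 in neither state and 0.898% of those with the mark in both. The strongest member with a match and at most 30 bp of UTR lay in an intron of Trpv2, a cation channel gene, with its summit 84 bp upstream of the nearest TSS (chr11:62575363-62575562). The capitals mark the match, which reads along the plus strand as the reverse complement of the consensus.
Trpv2: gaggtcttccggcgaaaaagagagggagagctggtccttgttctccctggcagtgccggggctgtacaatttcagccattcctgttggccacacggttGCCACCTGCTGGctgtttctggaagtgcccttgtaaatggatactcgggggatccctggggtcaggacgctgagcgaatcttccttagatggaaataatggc

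The members touched 3359 annotated genes, 6.56% of those on chromosomes 1 to 19, of which 2467 were protein-coding (11.9% of all protein-coding genes). Of the 2467 protein-coding genes, 1773 had a quiescent or activated peak within 1 kb of a TSS, as had 13424 of all 20807 protein-coding genes (64.5%). The other 694 (3.34% of all protein-coding genes) had a promoter peak in reactivated cells alone, and at 301 of them the member carried H3K4me3 in both states. The 3.34% is the share to set beside each later count of genes with a member and no other promoter peak. No difference from it was tested. Other gene types added 892 genes, among them 215 lincRNAs, 211 antisense genes and 102 processed pseudogenes. Members at protein-coding genes carried H3K4me3 in both states at 58.5%, and members at other genes alone at 19.9%. A gene of 1 type often shares a window with another, so a member can count for several genes.

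Among neural genes, the share with a member was 29.3% in the neuron list, 31.8% in the astrocyte list and 11.5% in the stem cell list, beside 11.9% of all protein-coding genes. Differences between lists or from that share were not tested. Of 41 neuron genes 12 had a member (29.3%), and 5 of the 12 had no quiescent or activated promoter peak: Dlx5, Elavl3, Nefh, Slc17a7 and Tbr1. Elavl3, an RNA-binding protein of neurons, had fold enrichments of 4.24 and 4.88 at its TSS (chr9:22051922-22052180) under a quiescent H3K4me3 peak of 5.97-fold. Dlx5, a homeobox factor of GABAergic neurons, had 4.26 and 3.48, and Tbr1, a T-box factor of cortical glutamatergic neurons, had 3.24 and 3.23 without H3K4me3. Gad1, which makes GABA, had 3.73 and 5.03 beside another open site, and Map2, a dendritic microtubule protein, had 4.14 and 5.32 at 521 bp downstream of a TSS that had no other open site in its window.

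Of 22 astrocyte genes 7 had a member (31.8%), 2 of them without another promoter peak. Slc7a10, an amino acid transporter of astrocytes, had fold enrichments of 3.78 and 4.82, and Itih3 had 5.34 and 3.59 beside another open site. Slc1a2, the main glutamate transporter of astrocytes, had 3.17 and 3.28 beside another open site under H3K4me3 peaks of 40.8-fold and 41.8-fold. Of 26 neural stem cell and radial glia genes 3 had a member: Thbs4 (3.87 and 5.19, with no other promoter peak), Nr2e1 (2.72 and 2.43) and the Notch target Hes5 (2.27 and 2.17), the last both beside an open site. Of the 26, 24 had a quiescent or activated promoter peak. Oligodendrocyte genes with a member were 4 of 23 (17.4%, beside 11.9% of all protein-coding genes). They were Aspa (5.87 and 5.32, no other promoter peak), Enpp6, Olig2 and Cnp. At Olig2, the lineage factor of oligodendrocytes, the member was a stretch of 2.66-fold and 3.12-fold 548 bp upstream of the TSS and 176 bp from an open site. Ependymal and ciliated cell genes with a member were Tekt4, Ccdc153, Mcidas and Pifo, 4 of 23 (17.4%).

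Genes of cells that a brain culture could hold besides NSPCs were also among the members, and differences between these lists, or from the 11.9% of all protein-coding genes, were not tested. Of 27 microglia and immune cell genes 2 had a member (7.41%) and 0 had one without another promoter peak. Irf8, an immune transcription factor, had 3.20 and 3.79 beside an open site. Of 25 endothelial, mural and fibroblast genes 6 had a member (24.0%). Of these 5 had no quiescent or activated promoter peak, beside 3.34% of all protein-coding genes, a difference that was not tested. In this list 9 of 25 genes had a quiescent or activated promoter peak (36.0%, against 64.5% of all protein-coding genes). Abcc9, a channel subunit of mural cells, had fold enrichments of 7.07 and 5.49 at its TSS (chr6:142702181-142702630), and Acta2, smooth muscle actin, had 6.40 and 5.19 (chr19:34254183-34254438). Anpep, an aminopeptidase of pericytes and epithelia, had 4.67 and 3.19, and the proteoglycan gene Dcn had 3.20 and 3.59. Abcc9, Acta2 and Dcn had no H3K4me3 peak in either state.

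Of 20 epithelial genes 4 had a member (20.0%, beside 11.9% of all protein-coding genes). All 4 had no other promoter peak, beside 3.34% of all protein-coding genes, and neither difference was tested. In this list 2 of 20 genes had a quiescent or activated promoter peak at all, against 64.5% of all protein-coding genes. Epcam, an epithelial adhesion molecule, had fold enrichments of 6.40 and 3.72 at a site with a GC content of 80.5% (chr17:87636522-87636972), under H3K4me3 peaks of 6.86-fold and 4.99-fold. Cdh1, E-cadherin, had 3.47 and 4.12 with H3K4me3 of 13.1-fold and 11.1-fold. Ocln, a tight junction protein, had 3.602 and 3.164 with H3K4me3 of 32.8-fold and 23.5-fold, and Esrp1, an epithelial splicing regulator, had 3.34 and 2.65 without the mark. Of 33 germ cell genes 3 had a member (9.09%, beside 11.9% of all protein-coding genes). All 3 were without another promoter peak, beside 3.34% of all protein-coding genes, and neither difference was tested. Of the 33, 7 had a quiescent or activated promoter peak. Tex15, a factor of meiosis and transposon silencing, had 7.738 and 9.495 (chr8:33517022-33517557) with H3K4me3 of 12.7-fold and 12.5-fold. Tdrd5, a Tudor protein of the piRNA pathway, had 6.00 and 5.99 (chr1:156302856-156303651) with H3K4me3 of 28.1-fold and 26.6-fold, and Tdrd6 had 3.87 and 3.46 without it. The muscle list had 1 member in 28 genes (3.57%, beside 11.9% of all protein-coding genes), the cardiac actin gene Actc1 (4.25 and 3.12).

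Counted by library, more promoters of these lists had a peak in the longer, reactivated lists. Epithelial genes with a promoter peak numbered 1 and 2 in the quiescent libraries, 1 and 1 in the activated libraries and 8 and 7 in the reactivated libraries. Endothelial, mural and fibroblast genes numbered 5 and 6, 9 and 7, and 15 and 13, and astrocyte genes 19 and 17, 17 and 16, and 22 and 21. All protein-coding genes numbered 12240 and 12525, 12586 and 12246, and 14140 and 14094. With every list limited to its strongest 46071 peaks, epithelial genes numbered 1 and 2, 1 and 1, and 2 and 1, astrocyte genes 18 and 16, 15 and 16, and 16 and 16, and endothelial, mural and fibroblast genes 4 and 5, 7 and 7, and 9 and 7. At equal length the reactivated libraries overlapped the others in each of these 3 lists except that reactivated library 1 stood above the rest in the last. Other lists went either way at equal length. Neuron genes numbered 22 and 24 in the reactivated libraries and 19 to 27 in the other 4, muscle genes 6 and 6 against 5 to 9, ependymal genes 9 and 10 against 10 to 12, and immediate early genes 21 and 22 against 22 to 23. All protein-coding genes numbered 11891 and 12016 in quiescent, 12156 and 12202 in activated and 12529 in each of the reactivated libraries. Genes of Wnt, Notch and hedgehog signaling numbered 42 to 48 in the other 4 libraries and 49 in each reactivated library, and those of BMP and TGF-beta signaling 38 to 42 and 43. The identity of the cells in each library was not tested.

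**Figure D5:**
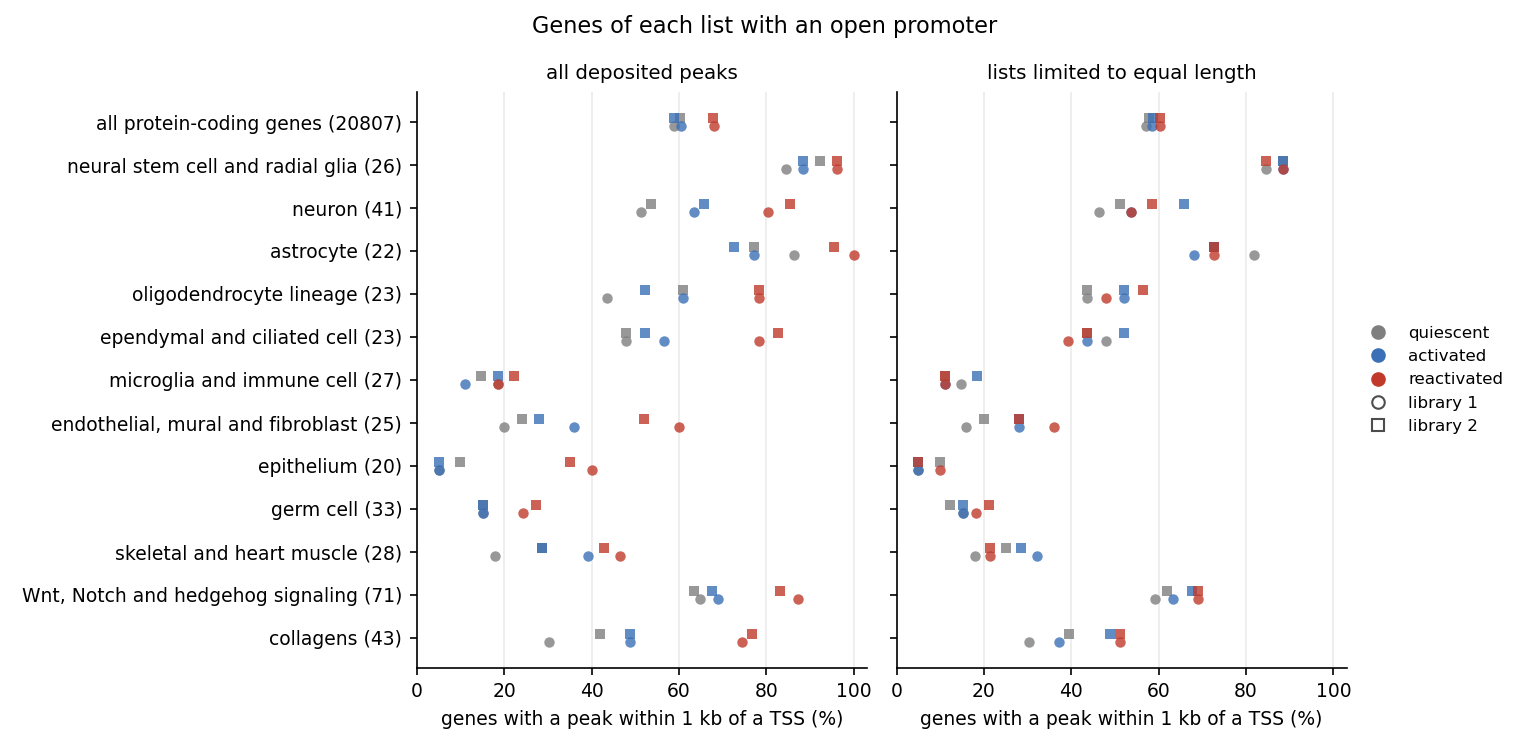
Share of the genes in each list with a peak within 1 kb of a TSS (x axis, %) in the 2 quiescent (grey), 2 activated (blue) and 2 reactivated (red) libraries, circles for library 1 and squares for library 2, over all deposited peaks (left) and over the strongest 46071 peaks of each library (right), with the number of genes in parentheses. Red points stand to the right in most lists on the left panel and close to the other points in most lists on the right panel.

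Genes of the pathways that the culture medium drives were among the members, and as with all protein-coding genes that had a member (1773 of 2467), most were also open in quiescent or activated cells. Of 51 genes of BMP and TGF-beta signaling 10 had a member (19.6%, beside 11.9% of all protein-coding genes, a difference that was not tested), and 45 of the 51 had a quiescent or activated promoter peak. The ligand gene Bmp3 had 5.80 and 6.28 (chr5:98854657-98855227) without another promoter peak and with H3K4me3 of 19.8-fold and 15.7-fold. The ligand gene Bmp6 had 3.31 and 3.65, the receptor-activated Smad3 had 4.48 and 4.40, and the inhibitory Smad6 had 3.15 and 3.79, each at a gene also open elsewhere. Of 52 genes of EGF, FGF and ERK signaling 12 had a member (23.1%), 4 of them without another promoter peak. The ligand genes Fgf8 (4.00 and 4.01, at its TSS with H3K4me3 of 15.7-fold and 15.8-fold) and Ereg (3.602 and 3.99, without the mark) were of this kind, along with Fgf3 and Fgf21. Etv4, an Ets factor induced by ERK, had 3.57 and 5.19, and the kinase gene Map2k2 had 4.20 and 4.12.

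Of 71 genes of Wnt, Notch and hedgehog signaling 19 had a member (26.8%, beside 11.9% of all protein-coding genes), and 9 of them had no other promoter peak. Besides Fzd6 these included the Wnt ligands Wnt3 (2.67 and 3.59) and Wnt16 (3.602 and 2.926), the Wnt inhibitor Dkk1 (5.07 and 4.39), the Notch ligands Dll4 (3.01 and 2.72) and Jag2 (4.28 and 4.49), and the Notch targets Heyl (4.27 and 3.19) and Hes3 (4.94 and 5.01). Dll4 and Jag2 carried H3K4me3 in both states, Wnt3 in quiescent cells alone, and Dkk1, Heyl, Hes3 and Wnt16 in neither. The Hes3 peaks had −log10 q of 41.4 and 41.6. Dkk1, Dll4, Heyl, Jag2, Wnt3 and Wnt16 were named after their values were seen, as were Dlx5, Nefh, Slc17a7 and Tbr1 of the neuron list and Dcn of the fibroblast genes. Wnt2, another ligand, had 5.47 and 5.31 beside another open site.

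Cell cycle and immediate early genes had promoters already open outside reactivated cells. All 49 cell cycle genes had a promoter peak in every one of the 6 libraries. The 7 with a member (14.3%, beside 11.9% of all protein-coding genes), among them Ccnd2, Cdkn1a, Mcm6 and Rb1, all had another promoter peak. Cdkn1a, the p21 inhibitor of cyclin-dependent kinases, had 3.28 and 2.66 973 bp downstream of its own nearest TSS, and Mcm6, a helicase subunit, had 4.54 and 4.79 at 992 bp upstream, with no other open site in that window. Of 24 immediate early genes 4 had a member (16.7%), and neither share was tested against that of all genes. These were Fos (2.61 and 3.59), Jun (2.16 and 2.16), Jund (2.76 and 2.97) and Klf6 (2.65 and 2.49). All 4 lay beside another open site with H3K4me3 in both states, and their summits stood 113 to 1096 bp from the nearest TSS of the gene itself.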

How the data were processed

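Open chromatin was measured by ATAC-seq in 2 quiescent, 2 activated and 2 reactivated NSPC libraries, and H3K4me3 by ChIP-seq in 1 quiescent and 1 activated library. Per the study's methods and the submitters' processing notes, the authors trimmed reads with Trim Galore 0.4.0, aligned them to mm10 with Bowtie2 2.2.5, removed duplicates with Picard 1.88 and SAMtools 1.3.1, and called peaks in each library with MACS 2.1.1 at a false discovery rate of 0.05. The reactivated libraries were reduced to fewer reads before peak calling. Each deposited peak carries a fold enrichment over local background, which is a ratio, a −log10 p and −log10 q-value, and a score that restates the q-value. The H3K4me3 peaks were called as broad peaks with a cutoff of 0.01. The deposited peak values give no read totals. The study's methods state an approximate depth per sample, and its supplement lists read numbers for ATAC-seq libraries. Depth was read here only through the pileups recovered from fold enrichment and p-value. The low end of the local background recovered with them was 6.495 and 6.519 fragments in the reactivated libraries. It was 6.607 and 12.09 in quiescent libraries 1 and 2, and 6.54 and 6.012 in activated libraries 1 and 2.

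Peaks on chromosomes 1 to 19 were merged where they overlapped or touched, and compared with GENCODE (release M21) start sites in mm10 coordinates. H3K4me3 was counted where a broad peak shared at least 1 bp with a site. Base content and motifs were read from the GRCm38.p6 assembly in 200 bp around the summit of the stronger reactivated peak, and CpG content in 500 bp. Shares carry exact binomial intervals at 95%. No model across features was fitted, since the lists hold called peaks and not counts at fixed regions. The steps were run in Python 3.11.15 with numpy 2.4.6, pandas 2.3.3, scipy 1.17.1 and pysam 0.24.0 and tested on simulated data. The members, gene lists and tests were chosen with earlier results of these data known. The sites named were the 15 strongest, the 3 weakest, the 3 just outside, 5 each of the highest H3K4me3 and of those marked in 1 state alone, and up to 4 per gene list by strength. Genes named outside this rule are said to be so or complete a count of 5 or fewer. Sites on 1 chromosome were counted and not named. Some genes that the rule or a list would name are not reported here. The alternatives changed the lists' length, thresholds, merging, promoter window, start sites and replicates.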

Additional observations from a re-analysis of the deposited data

How the results depend on the processing

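The number of members depended most on how the lists were made comparable. It was 348 with lists of equal length, 1014 after scaling the reactivated fold enrichment (an alternative chosen after seeing the data), 1073 with a minimum −log10 q of 10 in the reactivated lists and 2063 where no quiescent or activated peak was allowed within 500 bp, against 3247. Leaving out 1 library gave 3564 to 6023, the highest values without reactivated library 1 (5976) or 2 (6023). The other alternatives stayed within 1.5 times, but with a minimum −log10 q of 10 in all lists only 1052 of the 3417 sites were members as reported.

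The median of the members' mean percentile, 29.8 as reported, was 55.8 with that minimum in all lists, 52.6 with it in the reactivated lists, 68.9 at equal length, 27.6 with start sites of protein-coding transcripts, 36.5 with no peak within 500 bp and 53.9 after scaling, and 19.7 to 32.3 with 1 library left out. The share with H3K4me3 in both states was, in the same order, 60.0%, 55.3%, 60.1%, 65.4%, 33.6% and 44.2%. It was 54.0% when peaks were merged only where they shared bases, 54.7% with a promoter window of 500 bp, 44.3% with one of 2 kb, 46.3% with H3K4me3 peaks of −log10 q of at least 10, and 51.1% to 53.4% with 1 library left out. Median GC content was 61.0% with the minimum in all lists, 63.0% at equal length, 60.5% and 57.0% with windows of 500 bp and 2 kb, 62.0% with protein-coding start sites, 58.0% with no peak within 500 bp, 58.0% after scaling and 58.0% to 59.0% with 1 library left out.

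The share beside another open site was 31.3% with the minimum in all lists, 39.98% with it in the reactivated lists, 29.0% at equal length, 47.9% with merging of shared bases alone, 36.5% and 47.7% with windows of 500 bp and 2 kb, 54.0% with protein-coding start sites, 14.2% with no peak within 500 bp, 25.8% after scaling, and 42.5% to 53.0% with 1 library left out. The share at protein-coding genes was 83.5%, 83.8% and 83.3% with the minimum in all lists, with it in the reactivated lists and at equal length, 79.0% with a window of 2 kb, 99.8% with protein-coding start sites, 76.2% with no peak within 500 bp, 78.8% after scaling, and 81.4% to 82.8% with 1 library left out. The cause of these shifts was not tested. No paired analysis was possible because the results come from peak calls and not from a test between groups.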

Other observations

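Several gene families outside the fixed lists of cell types and pathways held members. Collagens had a member at 14 of 43 genes (32.6%), 8 of them with no quiescent or activated promoter peak. Col4a3 and Col4a4, basement membrane collagens that share a promoter, had fold enrichments of 6.27 and 6.50 in reactivated libraries 1 and 2 with H3K4me3 peaks of 11.2-fold in quiescent and 10.4-fold in activated cells. Col11a2 had 4.02 and 5.07 without the mark, and Col15a1 had 3.64 and 3.66 with it. Collagen genes with a promoter peak numbered 13 and 18 with BMP4, 21 and 21 in continuous growth medium and 32 and 33 after reactivation, and 13 and 17, 16 and 21, and 22 and 22 with every list limited to its strongest 46071 peaks. Potassium channel genes had a member at 19 of 92 (20.7%), solute carriers at 59 of 358 (16.5%) and zinc finger genes named Zfp at 38 of 385 (9.87%), beside 11.9% of all protein-coding genes and 6.56% of all genes, and no difference of a family from these shares was tested. Keratins had a member at 0 of 110 genes, and olfactory and vomeronasal receptors at 6 of 1455.

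Of 67 histone genes 2 had a member (2.99%, beside 11.9% of all protein-coding genes), Hist1h2aa and Hist1h2ba, which are testis variants and share 1 site of 5.34 and 3.72. Of 1100 genes listed by microRNA name, which include host genes such as Mir124a-1hg and Mir670hg, 45 had a member (4.09%, beside 6.56% of all genes). By annotated type, 67 of 2054 miRNA genes had one (3.26%). The site shared by Mir34b and Mir34c had 5.74 and 6.92, while those near Mir124a-3 (2.26 and 2.58) and Mir9-3 (2.43 and 2.92) lay beside another open site.

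A list of imprinted genes was written after the values at Zrsr1 had been seen, so its counts are no support for any pattern. Of 60 such genes 11 had a member (18.3%, beside 11.9% of all protein-coding genes), 3 of them (Dcn, Dlk1 and Zrsr1) without another promoter peak, beside 3.34% of all protein-coding genes. Dlk1, a paternally expressed Notch-pathway protein, had fold enrichments of 4.70 and 5.91, and Gnas had 4.55 and 4.97. The genes of these paragraphs other than those of the list rule were named after their values were seen.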
